A study of Mus musculus with 6 samples.

Results

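Transcripts of 9 ion channel genes that set the electrical activity of islet endocrine cells were followed in β, α, δ, and Ppy cells of 3 WT and 3 β14-3-3ζ–KO mice. They were *Kcnj11* and *Abcc8*, *Cacna1a*, *Cacna1c*, and *Cacna1d*, *Kcnk16* and *Kcnk3*, *Trpm5*, and *Scn9a*, chosen by gene symbol, and all 9 were found once each among the 32285 genes of the count tables. Mice of both groups were of C57/BL6 background, aged 12 to 14 weeks, and carried the *Ins1*-CreThor driver, which acts in β cells. β14-3-3ζ–KO mice also had loxP sites around exon 4 of *Ywhaz*, the gene of the scaffold 14-3-3ζ, and WT mice were littermates without them. Islets recovered overnight, were dispersed and cleared of dead cells, and gave 1 droplet library per mouse, in which each captured RNA molecule is counted once by its unique molecular identifier (UMI). The study reported loss of *Ywhaz* in β cells only, so the comparison of α, δ, and Ppy cells asks about effects of the β cell deletion on neighbouring cells.

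In a β cell, metabolism is coupled to insulin release through membrane voltage. ATP closes the KATP channel, which is built from the pore Kir6.2 (*Kcnj11*) and the sulfonylurea receptor SUR1 (*Abcc8*), the cell depolarizes, voltage-gated calcium channels open, and the calcium that enters triggers exocytosis. The tandem-pore-domain potassium channels encoded by *Kcnk16* (TALK-1) and *Kcnk3* (TASK-1) carry background potassium current and hold the resting potential down, the calcium-activated cation channel *Trpm5* depolarizes, and the sodium channel pore encoded by *Scn9a* adds to the action potential. The potassium channels of this group are thus an inward rectifier with its receptor and background channels, and none of them is voltage gated.

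Cells were assigned by their leading hormone. A cell was put in the β, α, δ, or Ppy class when insulin, *Gcg*, *Sst*, or *Ppy* took at least 20%, 5%, 2%, or 5% of its UMIs and at least 2 times the share of the next hormone, which gave 7398, 709, 463, and 309 cells. The classes held 845 to 2068, 53 to 202, 53 to 108, and 25 to 79 cells per library. Of the listed markers, all 6 β genes were highest in the β class, 4 of 5 α genes in the α class, and all 3 δ genes in the δ class, whereas none of the 3 genes of the Ppy list was highest in the Ppy class, so that class rests on its hormone alone. The 2 libraries of any pair shared 7 to 27 barcodes.

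One library stood apart. In KO library 2 the β class had a median of 15053 UMIs per cell, against 29725 to 44404 elsewhere, and 621 of its 2068 cells held at least 3 immune markers, against 15 to 74 cells in each other library. *Ywhaz* checked the labels. With all β cells kept, it stood at 260.6, 303, and 290.0 CPM (UMIs per 1000000 non-hormone UMIs) in the WT mice, compared with 43.0, 61.7, and 41.6 CPM in the KO mice. As in the study, KO β cells that still showed *Ywhaz* did not enter the sums. That left 712, 1252, and 606 KO β cells with medians of 28397.5, 14729.5, and 30250 UMIs. UMIs were summed per library and class. Levels are CPM after TMM scaling, with 7 hormone genes taken out of the total. Without KO library 2, no call of a member between classes or genotypes changed except that of *Cacna1c* between δ and Ppy cells. In sums, fewer cells with a transcript and fewer transcripts per cell cannot be told apart.

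Positions are those of GENCODE vM21 on GRCm38. *Kcnj11* (chromosome 7, 46093953 to 46100764, minus strand) and *Abcc8* (chromosome 7, 46104523 to 46180033, minus strand) are neighbours with 3758 bp between them. *Trpm5* is on the same chromosome (143069153 to 143094642, minus strand), *Scn9a* on chromosome 2 (66480080 to 66634962, minus strand), *Kcnk3* on chromosome 5 (30588170 to 30625271, plus strand), and *Cacna1c* on chromosome 6 (118587240 to 119196418, minus strand). *Cacna1a* is on chromosome 8 (84388440 to 84640246, plus strand), and *Kcnk16* (20261376 to 20269199) and *Cacna1d* (30039939 to 30491455) are on chromosome 14, both on the minus strand. Genes with UMIs of their own overlap 7 members on the opposite strand (all but *Kcnj11* and *Kcnk16*), among them *Tssc4* at *Trpm5*, *Dcp1b* at *Cacna1c*, and *Dcp1a* at *Cacna1d*. Whether reads were counted by strand is not given in the sources used here.

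RefSeq start-site windows on GRCm38.p6 were found for *Cacna1c*, *Cacna1d*, *Kcnk16*, *Trpm5*, and *Scn9a*, and those of the 3 genes with 1 window each are shown, because *Trpm5*, *Kcnk16*, and *Scn9a* differed between classes in different ways. Each runs 5′ to 3′ from 250 bases before the start to 50 after it, at chr7:143094593-143094892, chr14:20269220-20269519, and chr2:66634913-66635212, all on the minus strand. Capitals mark every match, on either strand, to TATAAA, to the E-box CANNTG, to the homeodomain core TAAT, or to TGCTGA, part of the element read by Maf factors.
*Trpm5*: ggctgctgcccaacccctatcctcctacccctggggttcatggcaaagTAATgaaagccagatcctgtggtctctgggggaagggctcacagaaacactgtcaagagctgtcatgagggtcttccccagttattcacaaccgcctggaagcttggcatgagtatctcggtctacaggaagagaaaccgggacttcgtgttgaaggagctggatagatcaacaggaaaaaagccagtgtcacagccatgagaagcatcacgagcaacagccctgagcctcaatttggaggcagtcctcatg
*Kcnk16*: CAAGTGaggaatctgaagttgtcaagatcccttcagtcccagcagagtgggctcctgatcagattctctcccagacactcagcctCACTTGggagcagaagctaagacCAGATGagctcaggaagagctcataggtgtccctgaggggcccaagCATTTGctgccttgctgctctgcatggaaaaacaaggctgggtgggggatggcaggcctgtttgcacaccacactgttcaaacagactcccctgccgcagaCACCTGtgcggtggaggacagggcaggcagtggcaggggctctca
*Scn9a*: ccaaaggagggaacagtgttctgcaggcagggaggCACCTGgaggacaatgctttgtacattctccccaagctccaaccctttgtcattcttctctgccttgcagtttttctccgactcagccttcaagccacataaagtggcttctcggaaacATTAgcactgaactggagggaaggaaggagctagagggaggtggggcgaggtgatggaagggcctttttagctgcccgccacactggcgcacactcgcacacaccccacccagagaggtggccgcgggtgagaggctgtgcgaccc
The *Kcnk16* window held 5 E-box matches, the *Scn9a* window 1, and the *Trpm5* window 0. A TAAT match stood once in the *Trpm5* window and once in the *Scn9a* window. None of these 3 windows held TATAAA or TGCTGA. Of 32851 windows of the same length, 72.3% held CANNTG, 58% TAAT, 19.5% TGCTGA, and 13.6% TATAAA, so a match is common. CG pairs numbered 5 in the *Trpm5* window, 2 in the *Kcnk16* window, and 9 in the *Scn9a* window, against a median of 7.

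Between α and β cells, 7 of the 9 members were called by edgeR's quasi-likelihood test (FDR under 0.05 and an absolute log2 difference above 0.1), 3 of them higher in α cells and 4 higher in β cells. Of all 11141 genes tested, 30.3% were called higher in α cells and 27.5% higher in β cells. Between δ and β cells, 5 members were higher in δ cells and 3 in β cells, against 28.2% of all genes in each direction. Between Ppy and β cells, 4 members were higher in Ppy cells and 4 in β cells, against 27.4% and 25.6%. Most genes tested thus separated the β class from each other class, and the members' counts are read against that background. The median log2 difference of the members was -0.03 in α, 0.27 in δ, and -0.07 in Ppy cells from β cells, beside 0.04, 0.00038, and 0.02 over all genes. The sizes of the differences set the members apart from each other, as the plot of class differences shows.

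**Figure D1:**
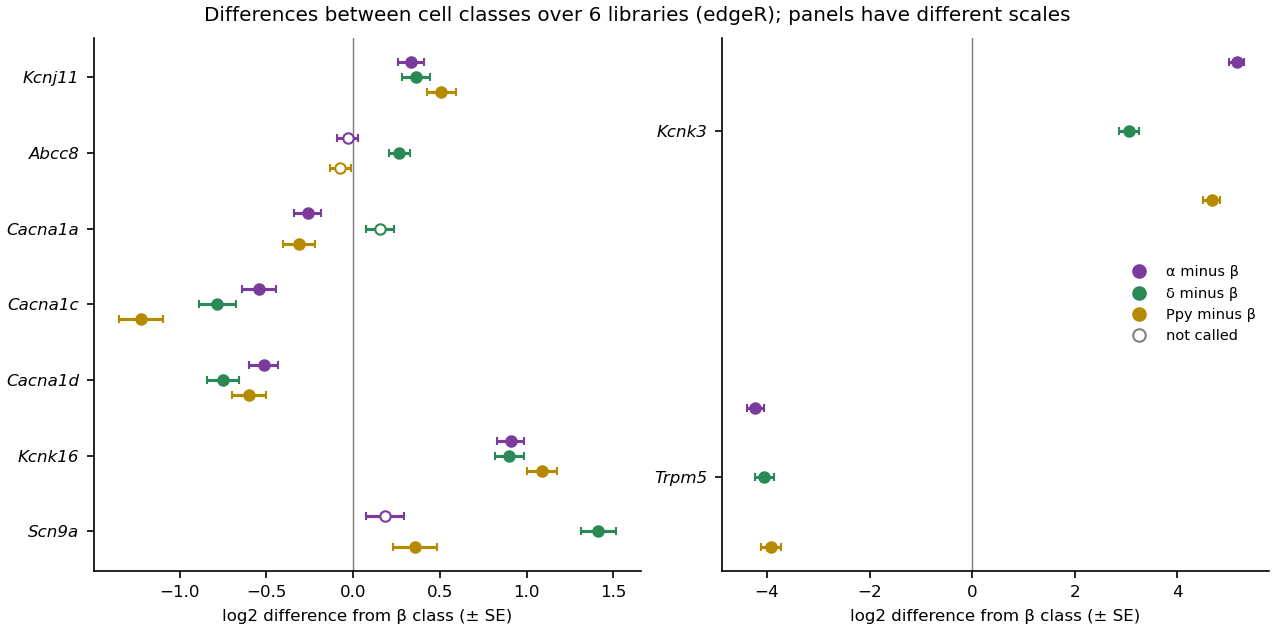
Log2 difference of each channel transcript in α, δ, and Ppy cells from β cells (x axis, edgeR estimate ± SE over 6 libraries; filled points passed FDR under 0.05 with an absolute difference above 0.1, open points did not). The left panel spans about -1.22 to 1.41 and the right panel, on its own scale, holds *Kcnk3* (3.06 to 5.15) and *Trpm5* (-4.23 to -3.93).

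*Kcnj11*, the KATP pore, was lowest in β cells. Its level in β cells was 65.2 CPM in the lowest library and 76.1 in the highest, with a median of 71.6 and a mean of 71.4 ± 4.2 (SD, n = 6). α cells had 89.9 ± 10.7 CPM, δ cells 91.5 ± 13.9, and Ppy cells 101 ± 7. The α and Ppy levels did not overlap with the β levels, and WT library 2 was the 1 library in which δ cells (68.2 CPM) were not above β cells (68.9 CPM). The differences from β cells were 0.33 ± 0.08 in α (SE, adjusted p = 0.00045), 0.36 ± 0.08 in δ (adjusted p = 0.00037), and 0.51 ± 0.09 in Ppy cells (adjusted p = 1.2e-05) on the log2 scale. The α call was lost with WT libraries alone (0.26 ± 0.12, adjusted p = 0.092) and with a leading hormone of 10 times the next (0.24 ± 0.11, adjusted p = 0.073), and the δ call with a leading hormone of 5 times the next (0.26 ± 0.13, adjusted p = 0.10) and of 10 times (0.39 ± 0.21, adjusted p = 0.18). The α, δ, and Ppy levels did not pass the test against each other.

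*Abcc8*, the regulatory receptor of the same channel and the target of sulfonylurea drugs, was instead highest in δ cells. Its level was 632 ± 28 CPM (SD, n = 6) in δ cells, 525 ± 41 in β, 514 ± 36 in α, and 498 ± 29 in Ppy cells. Every δ level, 586 to 664 CPM, lay above every β level, 472 to 556 CPM. The log2 difference of δ from β cells was 0.27 ± 0.06 (adjusted p = 0.00039), of δ from α cells 0.30 in favour of δ (-0.30 ± 0.06 for α minus δ, adjusted p = 0.00025), and of δ from Ppy cells 0.34 ± 0.06 (adjusted p = 0.00014). In α and Ppy cells *Abcc8* stood at -0.03 ± 0.06 and -0.07 ± 0.06 from β cells and was not called. The δ against β call was lost in KO libraries alone (0.20 ± 0.09, adjusted p = 0.067), without the filter on low counts (0.15 ± 0.07, adjusted p = 0.08), and with a leading hormone of 10 times the next (0.16 ± 0.11, adjusted p = 0.31). With that last setting the calls of δ against α (-0.29 ± 0.12 for α minus δ, adjusted p = 0.069) and against Ppy cells (0.33 ± 0.12, adjusted p = 0.06) were lost as well.

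Since both KATP genes are read in the same sum, the ratio of their UMIs needs no scaling, although its absolute size depends on how each mRNA is captured. *Abcc8* gave 7.35 ± 0.35 UMIs per *Kcnj11* UMI in β cells (SD, n = 6), 5.77 ± 0.67 in α cells, 7.06 ± 1.29 in δ cells, and 4.95 ± 0.32 in Ppy cells. The ratio was below that of β cells in 6 of 6 libraries in α cells (-0.36 ± 0.15 on the log2 scale, SD) and in 6 of 6 in Ppy cells (-0.57 ± 0.14). In δ cells it was higher in 2 of 6 libraries (-0.07 ± 0.22). By an exact 2-sided sign-flip permutation test over the 6 libraries, p was 0.031 in α and Ppy cells, the smallest this test can give, and 0.44 in δ cells. Adjusted over the 9 ratio comparisons made here, those values are 0.047, 0.047, and 0.56.

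**Figure D2:**
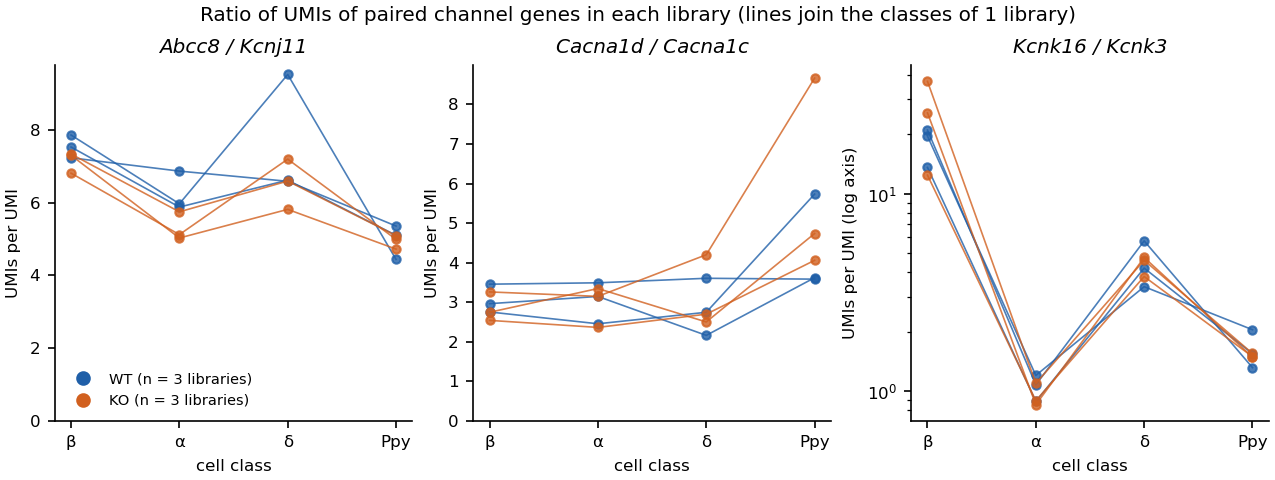
UMIs of one channel gene per UMI of its partner (y axis, the right panel on a log axis) in each class (x axis), with 1 line per library. All 6 lines fall from β to Ppy cells for *Abcc8* over *Kcnj11* and rise for *Cacna1d* over *Cacna1c*, and *Kcnk16* over *Kcnk3* runs from 21.5 in β to 1.00 in α cells on average.

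*Cacna1c* and *Cacna1d* encode the L-type calcium channel pores CaV1.2 and CaV1.3, and both were highest in β cells. *Cacna1c* was at 58.7 ± 6.0 CPM in β cells (SD, n = 6), 40.7 ± 4.7 in α, 34.3 ± 0.7 in δ, and 24.4 ± 7.1 in Ppy cells. The 6 β levels ran from 53.5 to 67.0 CPM and the highest level in another class was 47.8 CPM, so no library of another class reached the β range. The log2 differences were -0.54 ± 0.10 in α (SE, adjusted p = 2.1e-05), -0.78 ± 0.11 in δ (adjusted p = 5.1e-07), and -1.22 ± 0.13 in Ppy cells (adjusted p = 4.7e-09). With a leading hormone of 10 times the next, the δ call was lost (-0.70 ± 0.30, adjusted p = 0.076). *Cacna1c* was also lower in Ppy than in α cells (0.68 ± 0.15 for α minus Ppy, adjusted p = 0.001), but WT libraries alone gave 0.38 ± 0.19 (adjusted p = 0.28). The call between δ and Ppy cells (0.44 ± 0.16, adjusted p = 0.042) was lost in 11 of the other settings, among them those without WT library 1, WT library 3, or any 1 KO library (0.37 to 0.47). Ppy sums held 9 to 36 *Cacna1c* UMIs per library, which limits the precision there.

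For *Cacna1d*, the level was 173 ± 24 CPM in β cells (SD, n = 6), 121 ± 19 in α, 102 ± 28 in δ, and 116 ± 26 in Ppy cells. The lowest β library, at 149.9 CPM, was above all 18 other sums, of which δ cells of KO library 1 came closest at 148 CPM. Differences from β cells were -0.52 ± 0.08 in α (SE, adjusted p = 7.7e-06), -0.75 ± 0.09 in δ (adjusted p = 7e-08), and -0.60 ± 0.10 in Ppy cells (adjusted p = 6.8e-06). The other classes were not called against each other, with α minus δ at 0.23 ± 0.10 (adjusted p = 0.07). In 4 of the other settings α cells were called above δ cells. These were without KO library 1 (0.31 ± 0.12, adjusted p = 0.042) or KO library 3 (0.30 ± 0.11, adjusted p = 0.031). The others were no filter on low counts (0.25 ± 0.09, adjusted p = 0.028) and up to 20% mitochondrial UMIs (0.26 ± 0.09, adjusted p = 0.016). The UMI ratio of *Cacna1d* to *Cacna1c* was 2.95 ± 0.35 in β, 2.99 ± 0.47 in α, and 2.98 ± 0.76 in δ cells, and 5.07 ± 1.94 in Ppy cells, where it exceeded that of β cells in 6 of 6 libraries (0.71 ± 0.50 on the log2 scale, SD, exact permutation p = 0.031, adjusted p = 0.047). In α and δ cells the ratio was higher than in β cells in 3 of 6 libraries each (exact permutation p = 0.91 and 0.84).

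*Cacna1a*, the P/Q-type pore CaV2.1, followed another order. Its level was 138 ± 26 CPM in δ cells (SD, n = 6), 125 ± 12 in β, 105 ± 14 in α, and 102 ± 19 in Ppy cells. Levels of the classes overlapped. *Cacna1a* was lower than in β cells by a log2 difference of -0.26 ± 0.08 in α (SE, adjusted p = 0.006) and -0.31 ± 0.09 in Ppy cells (adjusted p = 0.0053), and both calls were lost with WT libraries alone (-0.26 ± 0.12 and -0.26 ± 0.14, adjusted p = 0.10 and 0.15). δ cells stood at 0.15 ± 0.08 from β cells (adjusted p = 0.11), which became a call in 4 of the other settings. These were without WT library 3 (0.22 ± 0.09, adjusted p = 0.046) and with a leading hormone of 10 times the next (0.54 ± 0.16, adjusted p = 0.012). The others were no minimum of UMIs per cell (0.22 ± 0.08, adjusted p = 0.0175) and up to 20% mitochondrial UMIs (0.18 ± 0.06, adjusted p = 0.016). δ cells differed from α cells by 0.42 in favour of δ (-0.42 ± 0.09 for α minus δ, adjusted p = 0.00056), and from Ppy cells by 0.47 ± 0.10 (adjusted p = 0.00094). With WT libraries alone these calls were lost too (-0.39 ± 0.14 and 0.39 ± 0.15, adjusted p = 0.051 and 0.11).

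*Kcnk16* (TALK-1), a potassium channel of the pancreas that limits calcium entry in β cells, was lowest in β cells. The β level was 74.7 CPM in the lowest library and 102.4 in the highest, with a median of 88.0. The lowest, median, and highest values were 153, 159, and 190.1 CPM in α cells, 142.0, 165, and 189 in δ cells, and 167, 179, and 236 in Ppy cells, so no β sum overlapped with a sum of another class. The log2 differences were 0.91 ± 0.08 in α (SE, adjusted p = 1.1e-10), 0.90 ± 0.08 in δ (adjusted p = 3.9e-10), and 1.09 ± 0.09 in Ppy cells (adjusted p = 2.4e-11). α, δ, and Ppy cells were not called against each other.

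*Kcnk3* (TASK-1), an acid-sensitive relative, showed the widest differences of the members. It was at 158.6, 204.9, and 148 CPM in α cells of WT libraries 1 to 3 and at 185, 178, and 140.4 CPM in KO libraries 1 to 3. In Ppy cells the 6 levels ran from 113 to 131 CPM, in δ cells from 28.2 to 55.9 CPM, and in β cells from 2.47 to 7.55 CPM. The 4 ranges did not overlap, and the order was α, Ppy, δ, and β. From β cells the difference was 5.15 ± 0.14 in α (SE, 35.6-fold, adjusted p = 1.7e-21), 4.67 ± 0.16 in Ppy (25.4-fold, adjusted p = 6.7e-19), and 3.06 ± 0.19 in δ cells (8.33-fold, adjusted p = 9.6e-14). α cells exceeded δ cells by 2.09 ± 0.15 (adjusted p = 6.5e-12) and Ppy cells by 0.49 ± 0.13 (adjusted p = 0.009). The last call was lost with WT libraries alone (0.52 ± 0.18, adjusted p = 0.08) and with KO libraries alone (0.43 ± 0.16, adjusted p = 0.089).

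The β level of *Kcnk3* lay in the range of cells that are not endocrine. In endothelial cells, named here by at least 3 endothelial markers, *Kcnk3* was at 5.09 ± 1.04 CPM (SD, n = 6), and in immune cells at 5.66 ± 4.46 CPM. With all β cells kept, the *Gcg* UMIs found in β cells corresponded to an amount of α cell RNA that would carry 0.88 to 5.66 CPM of *Kcnk3*, 21.7% to 60.2% of the β level in each library. KO library 2 had the highest of these shares. Folds and UMI ratios that divide by the β level of *Kcnk3* are thus set against this background. The UMI ratio of *Kcnk16* to *Kcnk3* was 21.5 ± 9.0 in β cells, 4.41 ± 0.83 in δ, 1.57 ± 0.25 in Ppy, and 1.00 ± 0.14 in α cells, and lower than in β cells in 6 of 6 libraries in each (exact permutation p = 0.031, adjusted p = 0.047).

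*Trpm5*, the calcium-activated monovalent cation channel, was high in β cells and low in the other 3 classes. Its β level was 119.2, 119.6, and 106 CPM in WT libraries 1 to 3 and 138, 133, and 135 CPM in KO libraries 1 to 3, from 1386 to 2282 UMIs per library. In α cells the 6 levels were 3.26 to 12.8 CPM, in δ cells 3.38 to 14.9, and in Ppy cells 1.65 to 13.9, from 1 to 26 UMIs per sum. The log2 differences from β cells were -4.23 ± 0.17 in α (SE, β cells 18.8-fold higher, adjusted p = 2.6e-18), -4.05 ± 0.18 in δ (16.6-fold, adjusted p = 5.6e-17), and -3.93 ± 0.20 in Ppy cells (15.2-fold, adjusted p = 1.2e-15). The other classes were not called against each other.

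*Trpm5* outside β cells was in the range of endothelial and immune cells. Endothelial cells gave 6.28 ± 3.75 CPM (SD, n = 6) and immune cells 11.4 ± 6.2 CPM. Over all cells of each class, reading β cell RNA from the insulin UMIs found in each class, free β cell RNA would carry 4.40 ± 2.34 CPM of *Trpm5* in α cells, 4.1 ± 2.0 in δ cells, and 5.76 ± 3.13 in Ppy cells. As medians over libraries these amounts were 78.4%, 48.8%, and 57.9% of what was seen there, against 3.02% to 5.74% for *Abcc8* in the same classes. The level seen was above the amount from free RNA in 5 of 6 libraries in α, 6 of 6 in δ, and 4 of 6 in Ppy cells. The source of the remainder was not tested. The folds for *Trpm5* are thus measured on top of this background, and levels in α, δ, and Ppy cells are not read as expression.

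*Scn9a*, the pore of the sodium channel Nav1.7, was highest in δ cells. The δ levels were 144, 117, and 141.0 CPM for the WT mice, with 122, 164, and 157 CPM for the KO mice. β cells ran from 40.4 to 59.3 CPM, α cells from 53.2 to 65.4, and Ppy cells from 41.0 to 102.4 CPM, so every δ level lay above every level of the other classes. Differences of δ from the others were 1.41 ± 0.10 against β (SE, 2.67-fold, adjusted p = 2.1e-12), -1.23 ± 0.12 for α minus δ (2.35-fold in favour of δ, adjusted p = 2e-09), and 1.06 ± 0.13 against Ppy cells (2.08-fold, adjusted p = 4.4e-07). *Scn9a* in Ppy cells exceeded that in β cells by 0.36 ± 0.13 (adjusted p = 0.019). Without WT library 1, whose Ppy cells held the 102.4 CPM, the value was 0.17 ± 0.10 (adjusted p = 0.18), and with KO libraries alone 0.13 ± 0.13 (adjusted p = 0.49). α cells were at 0.18 ± 0.11 from β cells (adjusted p = 0.16).

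**Figure D3:**
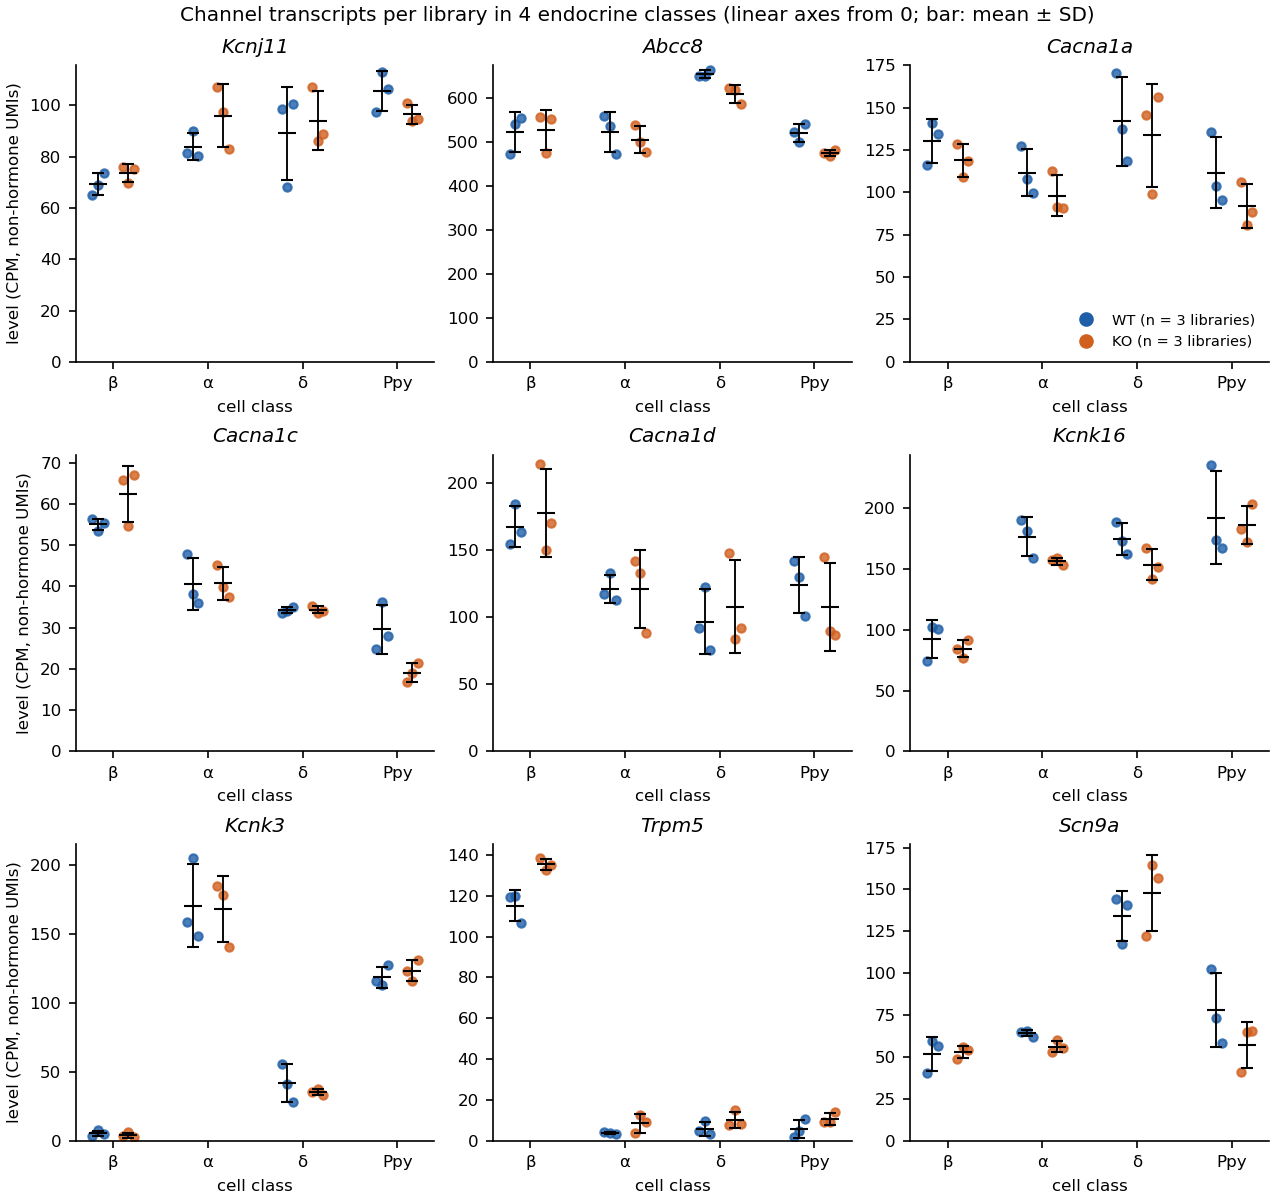
Level of each channel transcript (y axis, CPM of non-hormone UMIs, linear from 0) in the 4 classes (x axis), with 1 point per library, blue for WT and orange for KO, and bars for the mean ± SD of 3 libraries. *Kcnk3* is near 0 in β cells, *Trpm5* near 0 in the other classes, and δ cells are highest for *Scn9a*, while KO and WT points lie close together in most panels.

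Between α and δ cells, 1 member (*Kcnk3*) was higher in α and 3 (*Abcc8*, *Cacna1a*, *Scn9a*) in δ cells, against 21.0% and 20.2% of all genes. Between α and Ppy cells, 2 members (*Cacna1c* and *Kcnk3*) were higher in α and 0 in Ppy cells (11.2% and 12.0% of all genes). An unadjusted p under 0.05 was found in edgeR for the same 2 members, and DESeq2 called these 2, against 3819 of 11141 genes with such a p and 2440 called by DESeq2. Between δ and Ppy cells, 4 members (*Abcc8*, *Cacna1a*, *Cacna1c*, *Scn9a*) were higher in δ and 1 (*Kcnk3*) in Ppy cells, against 12.3% and 12.0%.

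The share of cells with a UMI gave the same members a second measure, taken after each cell was thinned to 3000 non-hormone UMIs so that depth did not set it. This left out 109 β, 1 α, 0 δ, and 1 Ppy cell as too shallow. *Abcc8* was found in 85.0% ± 4.8 of δ cells (SD, n = 6), 74.2% ± 4.8 of α, 72.2% ± 7.5 of β, and 71.1% ± 6.6 of Ppy cells. *Trpm5* was found in 30.1% ± 1.7 of β cells, and in 1.5% ± 1.7 of α, 3.01% ± 2.13 of δ, and 1.34% ± 1.09 of Ppy cells, beside 2.64% ± 1.64 of endothelial and 2.74% ± 1.88 of immune cells. *Kcnk3* was found in 36.7% ± 4.9 of α, 28.3% ± 4.1 of Ppy, and 10.8% ± 4.1 of δ cells, and in 1.4% ± 0.28 of β cells, beside 1.24% ± 0.47 of endothelial and 0.70% ± 1.0 of immune cells. The *Kcnk3* share of β cells, 0.95% to 1.82% over libraries, lay above both of these means but within the range of the libraries' shares in endothelial (0.73% to 2.03%) and immune cells (0% to 2.66%). It is not read as expression.

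Without thinning, *Trpm5* was seen in 71.5% ± 10.5 of β cells and *Kcnk3* in 76.8% ± 4.6 of α cells, 6.90% ± 1.17 of β, 4.14% ± 1.30 of endothelial, and 2.05% ± 1.01 of immune cells, which differ in depth. For *Scn9a* the thinned share was 28.9% ± 3.9 of δ cells, 16.9% ± 4.5 of Ppy, 13.8% ± 4.1 of α, and 13.7% ± 2.3 of β cells. *Kcnk16* had a UMI in 23.0% ± 3.4 of β cells and in 35.3% ± 4.1 of α, 35.9% ± 4.2 of δ, and 41.8% ± 2.4 of Ppy cells. *Cacna1c* had one in 15.6% ± 2.3 of β cells but in 5.55% ± 3.57 of Ppy cells, which overlapped with 3.91% ± 2.48 of endothelial cells. Of the 36 pairs of member and class, 30 had a share in every library above the highest share of the endothelial and immune cells. Levels in the endothelial class were not all at the amount that free β cell RNA would carry: *Cacna1c* was at 15.1 ± 3.8 CPM there, against 2.3 ± 1.5 from that source.

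**Figure D4:**
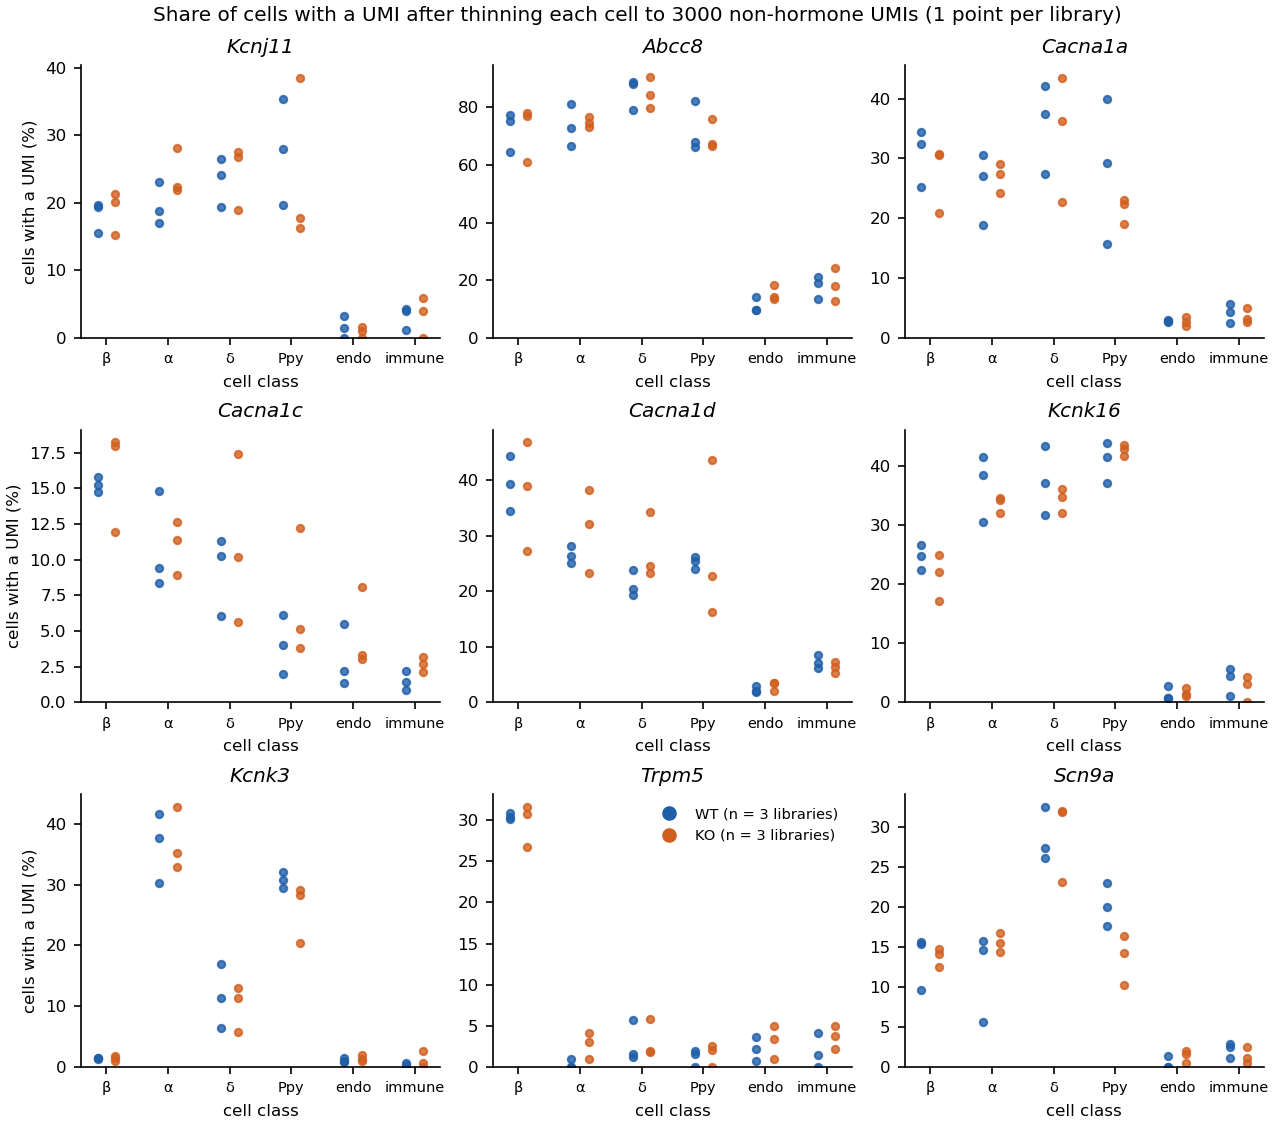
Percentage of cells with a UMI of each channel gene (y axis, linear from 0) after thinning every cell to 3000 non-hormone UMIs, in the 4 endocrine classes and in endothelial (endo) and immune cells (x axis), with 1 point per library. *Trpm5* in α, δ, and Ppy cells and *Kcnk3* in β cells overlap with the endothelial and immune points.

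The pattern of each member over the 24 sums was set beside that of all 11141 genes, as Pearson's r of log2(CPM + 1). These r values are descriptions over sums that share libraries. Nearest to *Kcnk3* were *Eef1a2* (r = 0.99), *Ctxn2* (0.982), and *Rcn3* (0.98), and nearest to *Trpm5* were *Gjd2* (0.968), the gene of the gap junction protein connexin-36, *B830017H08Rik* (0.967), and *Sytl4* (0.963), which encodes the granule protein granuphilin. *Scn9a* was nearest to *Lingo1* (0.967), *Adgrf5* (0.952), and *Clmp* (0.946), and *Kcnk16* to *Gata6* (0.964), *Smarca1* (0.949), and *5330417C22Rik* (0.948). For *Cacna1c* the nearest were *Rprd1b* (0.915), *Lrrc10b* (0.899), and *Retreg3* (0.898). *Kcnj11* (*Adnp*, *Mpp2*, *Myh10*, 0.813 to 0.853), *Abcc8* (*Stk39*, *Cd164l2*, *Rgs9*, 0.864 to 0.875), *Cacna1d* (*Mcf2l*, *Osbp*, *Mapk14*, 0.819 to 0.848), and *Cacna1a* (*Ctnnd2*, *Ece1*, *Galnt10*, 0.771 to 0.812) had looser neighbours. *Kcnj11* and *Abcc8* were not each other's nearest member, which was *Kcnk16* for *Kcnj11* (0.714) and *Scn9a* for *Abcc8* (0.764).

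Around the members, 111 other channel genes were listed in 7 groups, of which 51 passed the filter. Of these, 27 were called higher and 16 lower in α than in β cells, 30 higher and 11 lower in δ cells, and 28 higher and 12 lower in Ppy cells, with median log2 differences of 0.34, 0.52, and 0.41. Over all genes tested, 30.3% were called higher and 27.5% lower in α, 28.2% each way in δ, and 27.4% and 25.6% in Ppy cells. In α cells, the highest were the inward rectifier *Kcnj3* (24.5 ± 3.1 CPM against 0.55 ± 0.33 in β cells, SD, n = 6), the channel partner *Kcnip3*, and the calcium channel subunit *Cacna2d4*, with differences of 5.35 ± 0.27, 5.24 ± 0.33, and 4.31 ± 0.27 (SE). In δ cells they were *Trpa1* (5.48 ± 0.41), *Kcna5* (5.40 ± 0.39), and *Kcnd2* (5.39 ± 0.31), and in Ppy cells *Kcnip3* (5.26 ± 0.36), *Cacna2d3* (4.61 ± 0.38), and *Kcnj3* (4.46 ± 0.35). The β levels of these genes were near 1 CPM or below, so the folds are loosely bounded.

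The lowest in α against β cells were *Kcnip1* (8.95 ± 1.77 against 95.5 ± 12.5 CPM, SD, n = 6), *Kcna2*, and the pacemaker channel *Hcn4*, at -3.37 ± 0.13, -2.98 ± 0.26, and -2.72 ± 0.23 (SE). In δ cells they were *Kcna2* (-3.87 ± 0.34), *Kcnh1* (-3.71 ± 0.38), and *Kcnh6* (-2.21 ± 0.36), and in Ppy cells *Kcnip1* (-2.61 ± 0.14), *Kcna2* (-2.24 ± 0.30), and *Kcnh1* (-2.02 ± 0.34). The δ means of *Kcna2*, *Kcnh1*, and *Kcnh6* were 1.44, 1.72, and 1.51 CPM, with 0 in the lowest library of each, so these folds are loosely bounded. By group, the auxiliary calcium channel genes beside the 3 pores were higher than in β cells in 7, 6, and 7 of 8 tested in α, δ, and Ppy cells and lower in 1, 0, and 0. Of the 3 other calcium channel pores tested, 2, 3, and 2 were called higher and 0 lower. Among TRP genes other than *Trpm5*, 2, 3, and 2 of 7 were higher and 4, 2, and 4 lower. Voltage- and calcium-gated potassium channel genes were higher in 8, 10, and 9 of 20 and lower in 8, 7, and 6. Of sodium and HCN channel genes other than *Scn9a*, 4, 4, and 4 of 9 were higher and 3, 2, and 2 lower. The 2 further inward rectifiers and the 2 further tandem-pore-domain genes tested were called higher in all 3 classes. These counts stand beside 25.6% to 30.3% of all genes called in each direction, and no group was tested against that share.

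Deletion of *Ywhaz* in β cells was then set against the members' levels within each class. In β cells, 8 of the 9 members passed the filter of a UMI in more than 15% of cells of either genotype (*Kcnk3* did not), and edgeR called 0 of them, against 0.0105% of 9560 genes, the 1 called gene being *Ywhaz*, by which the cells were chosen. In α, δ, and Ppy cells 8 members were tested (*Trpm5* did not pass), 0 were called, and 0.0% of 9042, 0.0% of 9394, and 0.0% of 9429 genes were. At an unadjusted p under 0.05 there were 1, 0, 0, and 1 members and 356, 335, 323, and 468 genes in the 4 classes. DESeq2 called 0 members in each class and 8, 0, 0, and 0 genes. Same-numbered libraries deviated together in β, α, and δ cells, and blocking on the replicate number called 0 members and 9, 5, and 6 genes there.

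Of the other channel genes, 30, 27, 35, and 30 were tested between genotypes in β, α, δ, and Ppy cells, and 0 were called in each. At an unadjusted p under 0.05 in edgeR there were 2, 1, 0, and 1 of them.

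The unadjusted p under 0.05 in β cells was that of *Trpm5*, whose KO levels (133 to 138 CPM) lay above its WT levels (106 to 119.6 CPM), a log2 difference of 0.25 ± 0.08 (SE, unadjusted p = 0.01, edgeR adjusted p = 0.92). With all KO β cells kept it was 0.16 ± 0.07, without cells that held markers of other types 0.23 ± 0.08, and without KO library 2 0.24 ± 0.08 (adjusted p between 0.87 and 1.0 in edgeR). The thinned share of β cells with a *Trpm5* UMI, over all β cells, was 30.1% to 30.9% in WT and 31.6%, 26.7%, and 30.7% in KO libraries 1 to 3, so this measure overlapped. By level, *Trpm5* was the 1 of 8 tested members whose genotypes did not overlap in β cells, and 9.77% of all genes did not. In β cells *Cacna1c* stood at 0.20 ± 0.09, *Kcnj11* at 0.10 ± 0.07, *Cacna1d* at 0.10 ± 0.13, *Scn9a* at 0.04 ± 0.15, *Abcc8* at 0.03 ± 0.10, *Cacna1a* at -0.12 ± 0.09, and *Kcnk16* at -0.12 ± 0.12.

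*Abcc8* was counted from 4944 to 11881 UMIs per β sum. In WT β cells it was at 472, 541, and 554 CPM and in KO β cells at 556, 474, and 551 CPM in libraries 1 to 3. WT library 1 and KO library 2 were low in their groups, and the groups overlapped. *Kcnj11* was at 65.2, 68.9, and 73.6 CPM in WT and at 76.1, 69.6, and 75.1 CPM in KO β cells. The KO levels of 2 libraries were above the WT range and that of KO library 2 was within it.

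In the other classes, single members did not overlap between genotypes. These were *Kcnk16* and *Scn9a* in α cells (2 of 8, 9.41% of all genes), *Abcc8* in δ cells (1 of 8, 8.75%), and *Abcc8* and *Cacna1c* in Ppy cells (2 of 8, 10.7%), all lower in KO. *Kcnk16* in α cells was at 190.1, 181, and 159.3 CPM in WT and 157.5, 159.0, and 153 CPM in KO libraries, with WT library 3 next to the KO values (-0.16 ± 0.11, SE, adjusted p = 1.0). *Scn9a* in α cells was at 62.0 to 65.4 CPM in WT and 53.2 to 60.0 in KO (-0.17 ± 0.13). *Abcc8* in δ cells was at 649 to 664 CPM in WT and 586 to 623 in KO (-0.10 ± 0.10).

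*Cacna1c* in Ppy cells had the largest genotype difference of the members tested in the 4 classes. It was at 24.8, 36.3, and 27.9 CPM in WT libraries 1 to 3, from 15, 36, and 21 UMIs, and at 16.8, 19.0, and 21.5 CPM in KO libraries 1 to 3, from 9, 19, and 17 UMIs. The KO values lay below all WT values, by -0.65 ± 0.28 on the log2 scale (SE, unadjusted p = 0.03, edgeR adjusted p = 0.95). Leaving out cells with markers of other types gave -0.84 ± 0.30. Ppy cells of KO library 2 held at least 3 immune markers in 17 of 79 cells, against 0 to 9 cells in each other library, and the part of these cells in the result was not tested beyond that value.

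Whether the genotype difference depended on the class was tested by limma-voom, in which the sums of a library were allowed to correlate (estimated at 0.105). For α, δ, and Ppy cells against β cells, 0 of 27 member terms passed, and 0.00898% of all genes did in each, which was *Ywhaz* alone. The term of *Cacna1c* in Ppy cells (-0.81 ± 0.27, SE) was the 1 member term with an unadjusted p under 0.05, and its limma adjusted p was 0.999.

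**Figure D5:**
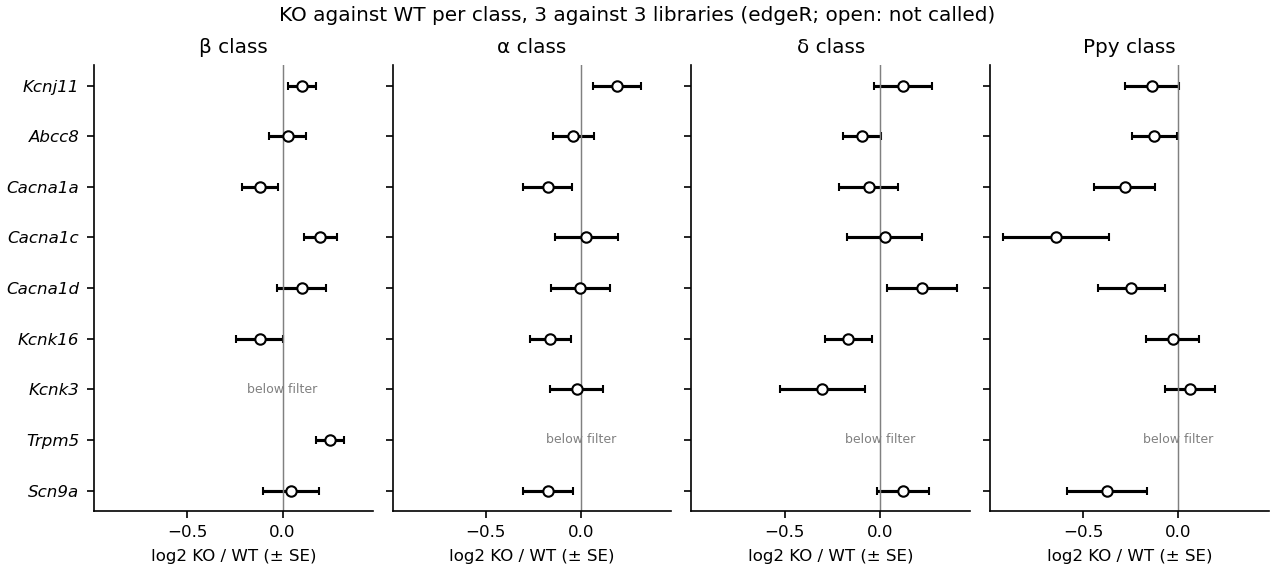
Log2 difference between KO and WT of each channel transcript (x axis, edgeR estimate ± SE, 3 against 3 libraries) in β, α, δ, and Ppy cells, with open points for values that were not called. No point is filled, *Trpm5* in β cells lies at 0.25, and *Cacna1c* in Ppy cells lies farthest from 0 at -0.65.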

How the data were processed

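The submitters' processing notes name Cell Ranger 6.0.2, Seurat, and mm10 for the 6 islet libraries, and what the authors deposited are counts of UMIs for each gene and cell barcode, not normalized. Barcodes with under 500 genes, over 10% mitochondrial UMIs, under 5000 UMIs, or a Scrublet doublet call (top 0.8% per 1000 barcodes where the automatic threshold marked under 0.5%) were left out, and classes were cut by hormone share. Library totals were 74083947 to 98294915 UMIs. The 9 members and the lists were chosen with earlier results of these data known. UMI sums per library and class, without *Ins1*, *Ins2*, *Gcg*, *Sst*, *Ppy*, *Iapp*, and *Pyy*, were tested in edgeR 4.0.16 (quasi-likelihood, TMM, Benjamini-Hochberg over all genes tested). Genotypes were compared over 3 against 3 libraries. Classes were compared in 1 fit of 24 sums with each library as a block and filterByExpr. The genotype by class term was tested in limma 3.58.1. DESeq2 1.42.0 was an alternative. R 4.3.3 and Python 3.11.15 were used. Each library is 1 mouse. Other channel genes were named as the 3 highest and 3 lowest called in each class against β cells, and any called between genotypes.

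Same-numbered WT and KO libraries deviated together from their genotype means in β (r = 0.18 to 0.554), α (0.133 to 0.414), and δ cells (0.136 to 0.365), but not in every pair of Ppy cells (-0.00135 to 0.377). The pairing comes from these values, not from the labels. No 2 libraries were copies (chi-square per degree of freedom at least 4.63). The fits were tested on simulated data with known changes. Of 1.5-fold changes between genotypes, 85.1% were called in β, 46.3% in α, 47.8% in δ, and 43.3% in Ppy cells. Of 2-fold changes, 100%, 97%, 88.1%, and 91% were. The genotype by class term, simulated for α cells, passed for 69% of 2-fold changes. Genotype changes of 1.5-fold or less could thus be missed in each class, β cells included. Recovery of changes below 1.5-fold was not tested, nor was that of a single changed gene. In β cells the largest member estimate, that of *Trpm5*, was 1.19-fold. Coordinates are from GENCODE vM21, in which 32158 of 32285 gene identifiers were found. The level of 1 marker gene is not reported here.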

Additional observations from a re-analysis of the deposited data

How the results depend on the processing

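The alternatives covered tools, scaling, filters on genes and cells, KO cells with *Ywhaz*, and left-out libraries. Of them, cells with markers of other types left out and a leading hormone of 5 times the next were added after seeing the data. Members called between genotypes numbered 0 in all 4 classes under every alternative run, and the genotype by class terms 0 under the 8 run for them (each library left out, no library correlation, and cells with other markers left out). With the replicate number as a block, 0 members were called in each class. In Ppy cells, where not every same-numbered pair deviated together, the block moved the count of all called genes from 0 to 10. DESeq2 moved that of β cells from 1 to 8. Without the filter on low counts, the count moved from 0 to 114 in α, 78 in δ, and 51 in Ppy cells, with 0 members among them. Members called between α and Ppy cells numbered 1 with KO libraries only, 0 with WT libraries only, and 4 with a leading hormone of 10 times the next, against 2, while all genes called numbered 1289, 1036, and 1902, against 2593. Between δ and Ppy cells they numbered 3 with WT libraries only and 3 with a leading hormone of 10 times the next, against 5 (1468 and 1081 of all genes, against 2700), and δ cells were then few (0 to 21 per library, with none in KO library 2, whose sum was dropped). Counts of members called against β cells and between α and δ cells stayed within 1.5 times under each alternative. Those of all genes did not. With a leading hormone of 10 times the next they numbered 2278 between δ and β cells, against 6278, and 1624 between α and δ cells, against 4597. No called member changed sign. Without the filter on low counts, the median log2 difference of all genes from β cells moved by -0.10 in α, -0.12 in δ, and -0.13 in Ppy cells, and *Abcc8* in Ppy cells (-0.21) was then called. Depth limits *Cacna1c* in Ppy cells and *Trpm5* outside β cells, with 36 and 26 UMIs per sum at most.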
